A study of Homo sapiens with 4 samples.

Results

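HLF, DBP and TEF encode the PAR-bZIP proteins, transcription factors that share a proline and acidic amino acid rich stretch beside a basic leucine zipper. They were described here together with NFIL3, which competes for the same DNA sites, and with clock genes PER1, PER2, PER3, CRY1, NR1D1 and BHLHE40. These 10 genes were chosen by name after a fall of HLF between knockout and wild type had been seen in these data. That contrast is therefore given for them as a description. Where a call of the fit is named for one of them it describes the fit, and it is no test of the gene. Probe sets were taken where the platform annotation gave 1 gene symbol. Of the 10 genes, 8 had such probe sets, 19 in all, out of 41091 probe sets with 1 symbol. PER1 had 4 probe sets annotated jointly with MIR6883 and NR1D1 had 3 annotated jointly with THRA, so no value is given for either.

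The series holds 4 Affymetrix expression arrays of HuH7, an established line of human hepatocellular carcinoma. The wild-type group was KDM6B wild-type HuH7 (2 arrays), and the knockout group was HuH7 in which KDM6B, which encodes a histone demethylase, was targeted with CRISPR/Cas9 (2 arrays). Knockout subclones had been isolated by limiting dilution after selection with G418, and per the labels it is open whether the knockout arrays come from 1 subclone or 2 and whether arrays of a group stem from separate cultures. A p-value therefore covers the spread of these arrays alone, possibly a technical one. Loss of KDM6B and the isolation of subclones cannot be told apart as sources of a difference. The labels used here name neither an hour of harvest nor a step that synchronised the cells.

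In the circadian clock, CLOCK and BMAL1 activate genes through E-box sites, and the PER and CRY proteins they induce repress them in turn. NR1D1 represses BMAL1, BHLHE40 competes at E-boxes, and DBP, HLF and TEF carry the rhythm onward by activating genes through D-box sites, where NFIL3 represses. In liver the PAR-bZIP proteins are known as regulators of detoxification genes. Levels of clock genes in a culture depend on the phase of its cells and on how well the cells are in step.

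Promoters of all 10 genes, from 250 bases before to 50 after the transcription start, were read from RefSeq (GRCh38.p14), 14 promoters in all since some genes had more than 1. Both strands were searched for the E-box CACGTG, the D-box TTANGTAA, the core AGGTCA bound by NR1D1 and the ROR receptors, and the cAMP response element TGACGTCA. The E-box letters stood in 4 of the 14 promoters (both of TEF and those of PER1 and BHLHE40), against 7.26% of all 35116 promoters of this length. The D-box letters stood in 2, that of PER2 and 1 of the PER3 promoters, against 2.18%. AGGTCA stood in 2 (PER1 and 1 of NFIL3) against 13.8%, and the cAMP response element in 1 of the HLF promoters, against 1.85%. No match overlapped another. Printed below are the HLF promoter with that element, HLF being the gene with the widest difference, and the promoters of PER2 and PER3 that hold the letters of the site that the PAR-bZIP proteins bind. They lie at chr17:55264710-55265009 (plus strand), chr2:238288561-238288860 (minus strand) and chr1:7784041-7784340 (plus strand), and are written 5′ to 3′ with motif matches in capitals. A match is a run of letters and was not shown to be bound.
HLF: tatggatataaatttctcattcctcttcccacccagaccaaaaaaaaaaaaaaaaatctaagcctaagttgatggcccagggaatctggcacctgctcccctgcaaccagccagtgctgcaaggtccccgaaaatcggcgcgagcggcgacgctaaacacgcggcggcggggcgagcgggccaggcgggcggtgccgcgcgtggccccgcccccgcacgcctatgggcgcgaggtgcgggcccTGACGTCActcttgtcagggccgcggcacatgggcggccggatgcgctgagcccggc
PER2: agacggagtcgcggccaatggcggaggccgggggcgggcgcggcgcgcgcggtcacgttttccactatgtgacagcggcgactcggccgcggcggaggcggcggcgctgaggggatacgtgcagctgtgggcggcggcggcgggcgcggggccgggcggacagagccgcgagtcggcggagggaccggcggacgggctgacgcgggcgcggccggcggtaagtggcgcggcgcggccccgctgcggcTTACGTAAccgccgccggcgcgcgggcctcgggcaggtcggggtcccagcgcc
PER3: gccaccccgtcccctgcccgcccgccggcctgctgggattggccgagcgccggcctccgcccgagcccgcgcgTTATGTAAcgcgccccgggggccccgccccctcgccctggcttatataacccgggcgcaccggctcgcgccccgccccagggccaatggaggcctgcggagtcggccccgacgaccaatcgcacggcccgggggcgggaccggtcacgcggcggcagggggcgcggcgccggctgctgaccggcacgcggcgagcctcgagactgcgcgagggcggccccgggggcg
The element in HLF begins 7 bases before the start site, the D-box of PER2 3 bases before it and that of PER3 177 bases before it.

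On its brightest probe set the targeted gene KDM6B read 8.46 and 8.27 (wild type) against 7.95 and 8.14 (knockout), a log2 difference of -0.32 (SE 0.12) that was not called (limma adjusted p = 0.235). All 5 KDM6B probe sets had lower knockout means, with log2 differences from -0.40 to -0.21, and 0 of them were called. A cut by a guide need not lower the mRNA, so this checks the labels only in part. Values are log2 expression values, and a gene, represented by its brightest probe set, was called at an adjusted p under 0.05 in limma's test over 19775 genes. The labelled cell type was borne out by hepatocyte and hepatoma markers, whose 7 measured genes had wild-type means between 10.87 and 13.80. Of these, SERPINA1 and FGB were called lower and 5 were not called. Over all genes 3.94% were called down and 3.14% up, a share that stands beside the other marker lists too. Summed on the linear scale the 7 gave 59273 to 62474 in wild type and 58116 to 58988 in knockout. Of 3 leukocyte markers LYZ was called lower, with PTPRC below the 25th percentile of every array. Of 4 endothelial markers PECAM1 was called lower, with CDH5 and KDR below that percentile throughout. Of 4 fibroblast markers 0 were called, LUM lying below it throughout. COL1A1 differed by 0.13 on its brightest probe set, but its other probe sets gave 1.43, 0.71, 0.53 and -0.05. Summed levels were 1587 to 2496 in wild type and 537 to 901 in knockout for leukocyte markers. They were 183 to 219 and 117 to 138 for endothelial markers, and 158 to 193 and 190 to 192 for fibroblast markers. Most of the leukocyte sum was LYZ and most of the endothelial sum PECAM1, so these sums follow single genes. CD3E differed by 0.03, PTPRC by 0.08 and VWF by -0.08. The part of these genes in the results below was not tested.

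HLF was far lower in knockout on each of its probe sets, whereas its relatives DBP and TEF were level on their brightest probe sets. PER2, a repressor of the clock, was higher in knockout on its brightest probe set. Besides DBP and TEF, the genes NFIL3, PER3, CRY1 and BHLHE40 were not called.

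**Figure D1:**
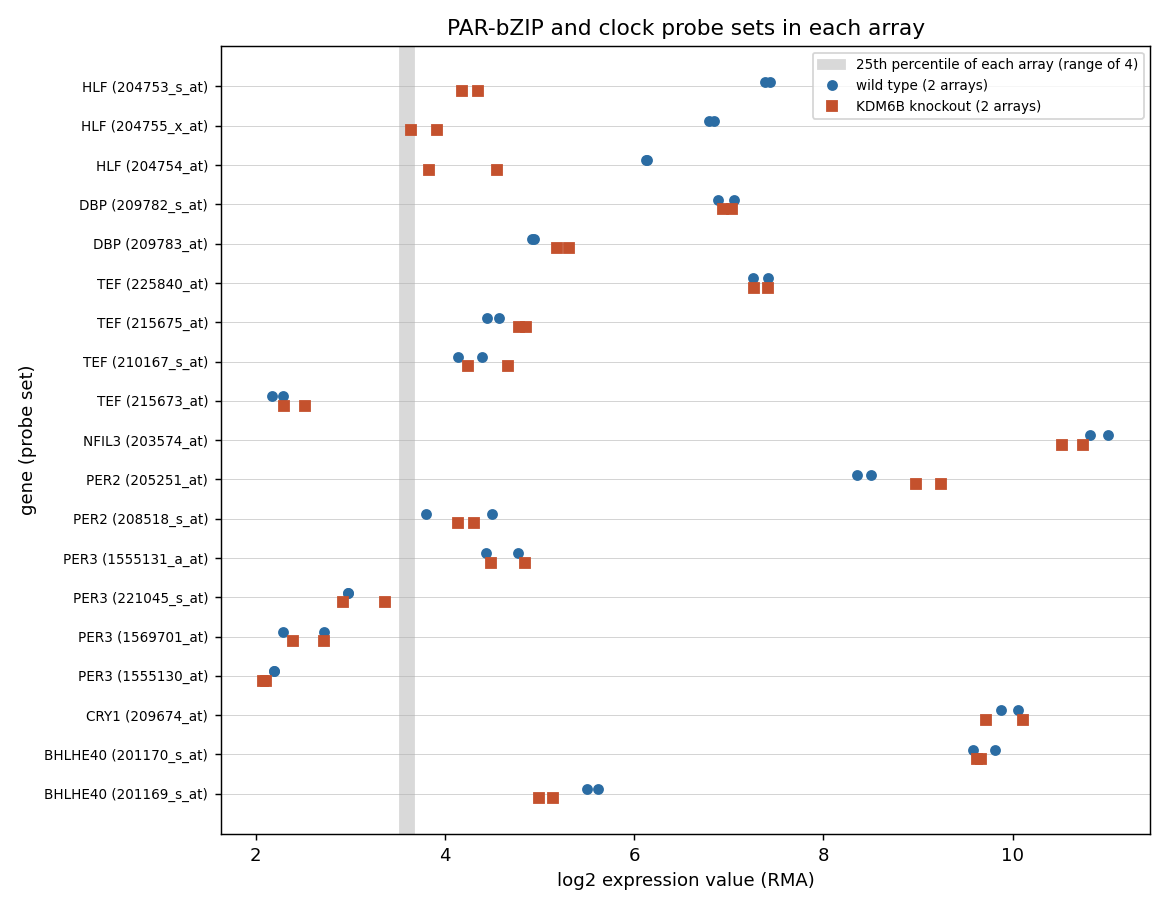
Log2 expression value (horizontal axis) of each of the 19 probe sets (rows) in the 2 wild-type arrays (circles) and the 2 knockout arrays (squares); the grey band spans the 25th percentiles of the 4 arrays. The 3 HLF rows show the widest gaps between groups, with knockout values of 3.64 to 4.55.

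The brightest HLF probe set (suffix s) read 7.44 and 7.38 in wild type against 4.35 and 4.18 in knockout. The next (suffix x) read 6.79 and 6.84 against 3.64 and 3.92, and the dimmest (no such suffix) 6.13 and 6.14 against 4.55 and 3.83. Both knockout arrays lay below both wild-type arrays on all 3. The log2 differences, knockout minus wild type, were -3.15 (SE 0.14), -3.03 (SE 0.16) and -1.94 (SE 0.25), which as differences of mean log2 values are falls of 8.85-fold, 8.20-fold and 3.84-fold. HLF was called down in the gene fit, and its difference was the 6th widest of the 779 genes called down. The suffixes s and x mark probe sets that may cross-hybridise, and the HLF probe set without one gave the smallest difference. The knockout readings were below the array medians of 5.05 and 5.01, and 1 of them (3.64) was below the 25th percentile of its array (3.67). Whether HLF was above background in knockout was thus not established, which leaves the size of the fall uncertain. With each array left out in turn the log2 difference was -3.23 to -3.06. In the fit over all probe sets, 0 HLF probe sets were called when either knockout array was left out.

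DBP, whose protein was first known for binding the albumin promoter, read 6.89 and 7.06 in wild type against 7.03 and 6.94 in knockout on its brightest probe set. These groups overlapped, and the log2 difference was 0.01 (SE 0.13). Its other probe set read 4.92 and 4.94 against 5.19 and 5.31, a log2 difference of 0.32 (SE 0.15), with no overlap and no call. Whether the DBP probe sets differ from each other was not tested.

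TEF, the PAR-bZIP member named for the thyrotroph cells of the pituitary, read 7.41 and 7.26 in wild type against 7.42 and 7.27 in knockout on its brightest probe set, a log2 difference of 0.01 (SE 0.12). Its 3 other probe sets had higher knockout means, with log2 differences between 0.19 and 0.31, and 0 of them were called. The dimmest of them lay below the 25th percentile on all 4 arrays. No TEF or DBP probe set was lower in knockout.

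NFIL3, the repressor that competes with the PAR-bZIP proteins, has 1 probe set, which read 10.82 and 11.01 in wild type against 10.74 and 10.52 in knockout. The knockout arrays lay below the wild-type arrays, by a log2 difference of -0.29 (SE 0.12), and the gene was not called. It was called, at the same difference, with a block that paired arrays of unlike title numbers across groups. This crossed pairing was chosen after the data were seen and raised the calls over all genes from 1399 to 3662. Nothing is therefore read from that call of NFIL3.

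PER2, which with its partners CRY1 and CRY2 represses CLOCK and BMAL1, read 8.50 and 8.35 in wild type against 8.98 and 9.24 in knockout on its brightest probe set. Both knockout arrays were higher, by a log2 difference of 0.69 (SE 0.13), or 1.61-fold. The gene was called up in the fit over genes. The same probe set was not called in the fit over all 54613 probe sets. The gene's call ended when any 1 of the 4 arrays was left out (log2 difference 0.56 to 0.82), as most calls over all genes did. The second PER2 probe set read 3.80 and 4.50 against 4.14 and 4.31, where the groups overlapped and the log2 difference was 0.08 (SE 0.26). The mean of both probe sets gave 0.38 and no call.

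PER3, another Period gene, was dim. Its brightest probe set read 4.43 and 4.77 in wild type against 4.85 and 4.49 in knockout, with overlap and a log2 difference of 0.07 (SE 0.21). The 3 others lay below the 25th percentile on all 4 arrays and differed by -0.09 to 0.16. CRY1, which encodes a cryptochrome repressor, read 10.06 and 9.88 against 9.72 and 10.11 on its only probe set. These groups overlapped, with a log2 difference of -0.05 (SE 0.15).

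BHLHE40, which encodes a repressor acting at E-boxes, read 9.81 and 9.58 in wild type against 9.67 and 9.62 in knockout on its brightest probe set, a log2 difference of -0.05 (SE 0.11) with overlap. Its dimmer probe set read 5.62 and 5.50 against 5.14 and 5.00, a log2 difference of -0.49 (SE 0.15) with no overlap and no call. Whether the BHLHE40 probe sets differ from each other was not tested, and both may cross-hybridise by their suffix.

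**Figure D2:**
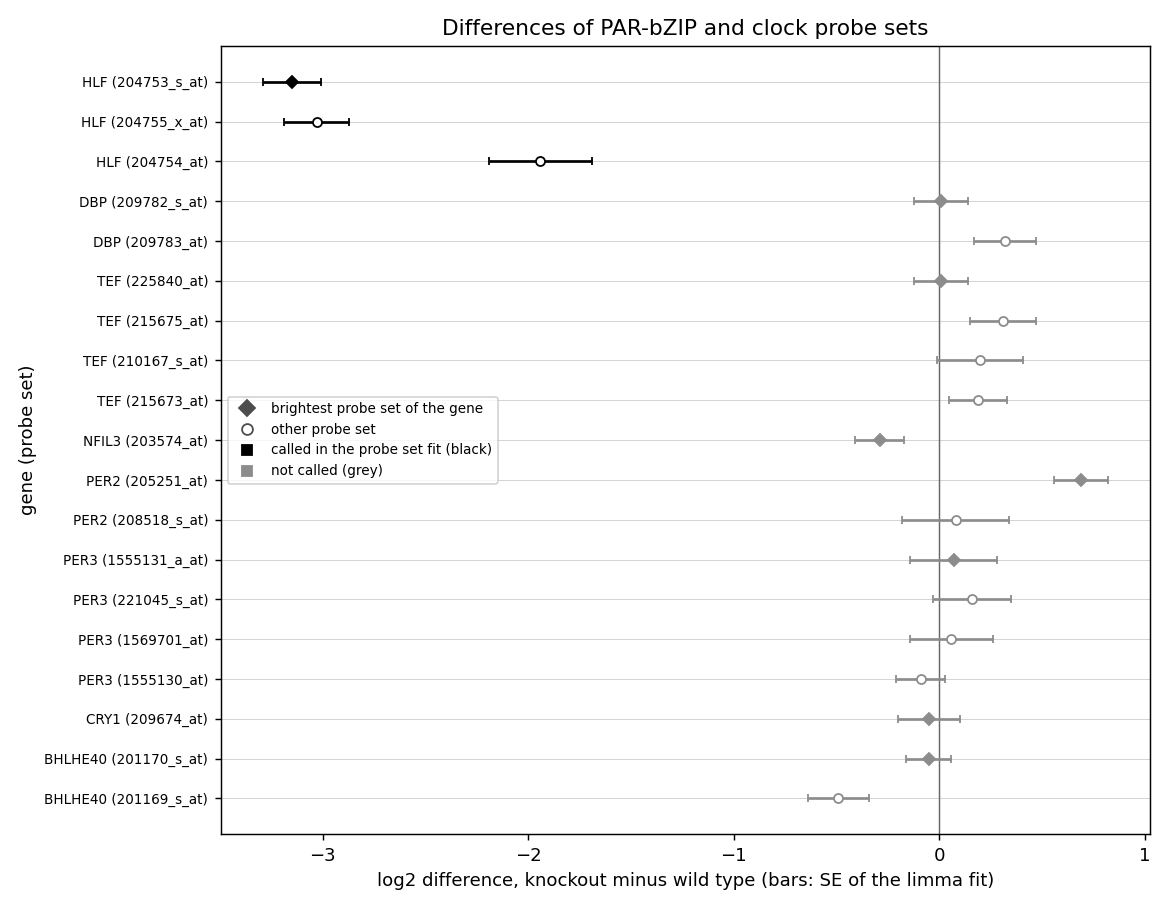
Log2 difference, knockout minus wild type (horizontal axis, bars: standard error of the limma fit), of the 19 probe sets (rows); diamonds are the brightest probe set of a gene, open circles the others, and black marks those called in the fit over all probe sets. The 3 HLF probe sets lie at -3.15, -3.03 and -1.94 and the 16 others between -0.49 and 0.69.

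Counted together, 1 of the 8 measured genes was called up (PER2), 1 down (HLF) and 6 were not called, where 7.07% of all genes were called (3.14% up and 3.94% down). Among the 19 probe sets, 0 were called up and 3 down (all of HLF), where 2.91% of all probe sets were called (1.27% up and 1.63% down). The knockout arrays lay outside the wild-type range on 10 probe sets, 6 below and 4 above, where 40.5% of all probe sets showed no overlap (19.9% below and 20.5% above). The median log2 difference was -0.02 over the 8 genes and 0.01 over all genes. Since HLF was the reason for the choice of genes, nothing is read from these counts.

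The spread between replicates does not use the contrast. The median absolute difference between the wild-type arrays was 0.15 over the 19 probe sets and 0.18 over all probe sets, and between the knockout arrays 0.21 and 0.16. The widest replicate difference was 0.69 in wild type, on the dim PER2 probe set, and 0.72 in knockout, on the dimmest HLF probe set. On every probe set HLF differed between groups by more than its replicates did. It was chosen for that difference, so nothing is read from this.

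The genes whose values over the 4 arrays were most like those of HLF were sought among 9888 genes at or above the median brightness, by Euclidean distance after each gene was centred on its mean. With 4 arrays in 2 groups such likeness is mostly the size of the difference between groups. The nearest was MYH4, a skeletal muscle myosin gene, at a distance of 0.34, which read 7.92 and 7.72 in wild type against 4.83 and 4.99 in knockout. DDAH1 (0.47), the adhesion molecule gene ALCAM (0.50), the acyl-CoA synthetase gene ACSL1 (0.58) and STAMBPL1 (0.62) followed. Their log2 differences ran from -2.96 for ACSL1 to -2.54 for STAMBPL1. MYH4 lies on chromosome 17 as HLF does, and the other 4 on chromosomes 1, 3, 4 and 10.

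Neighbouring genes were examined to see whether the genes around a member differed in the same direction. HLF lay below all of its neighbours on chromosome 17, but it was chosen for its fall, so nothing is read from that. Genes below the median brightness, as HLF itself was, are not among the neighbours. The 10 genes of at least median brightness before HLF had a median log2 difference of -0.05 and the 10 after it -0.01, against -0.04 over all such genes. The direct neighbours STXBP4 and MMD differed by -0.09 and -0.22. Of the 20 neighbours 1 was called, PCTP at -0.80, the lowest of them. PER2 on chromosome 2 had neighbours with medians of -0.29 and -0.15, of which 2 were called down and 0 up, so PER2 lay above all 20, whose highest value was 0.21. For the 6 other measured genes, medians of neighbours ran from -0.18 after NFIL3 to 0.20 before PER3. NFIL3, at -0.29, had neighbour medians of -0.16 and -0.18, with 3 called down and 2 up of 20. Over all genes 3.94% were called down and 3.14% up, the share to set beside the counts around HLF, PER2 and NFIL3. That share includes dimmer genes, which are not among the neighbours, so nothing is read from these counts.

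PER1 and NR1D1 also lie on chromosome 17, and only their surroundings can be given. The 20 genes around PER1, from FXR2 to MYH10, had medians of 0.00 before it and -0.06 after it. Of these 3 were called down and 0 up, where 3.94% of all genes, dimmer ones included, were called down and 3.14% up. The targeted gene KDM6B is itself among those before PER1 (-0.32, not called). FXR2 (-0.50) and SAT2 (-0.53), on the same side, were called down, as was RANGRF (-0.43) after PER1. The part of the targeted site in these values was not tested. The direct neighbours of PER1, CNTROB and TMEM107, differed by 0.07 and 0.36. Around NR1D1 the medians were 0.06 and 0.05, with 1 of 20 called up and 0 down. The direct neighbours THRA and MSL1 differed by 0.22 and 0.13.

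**Figure D3:**
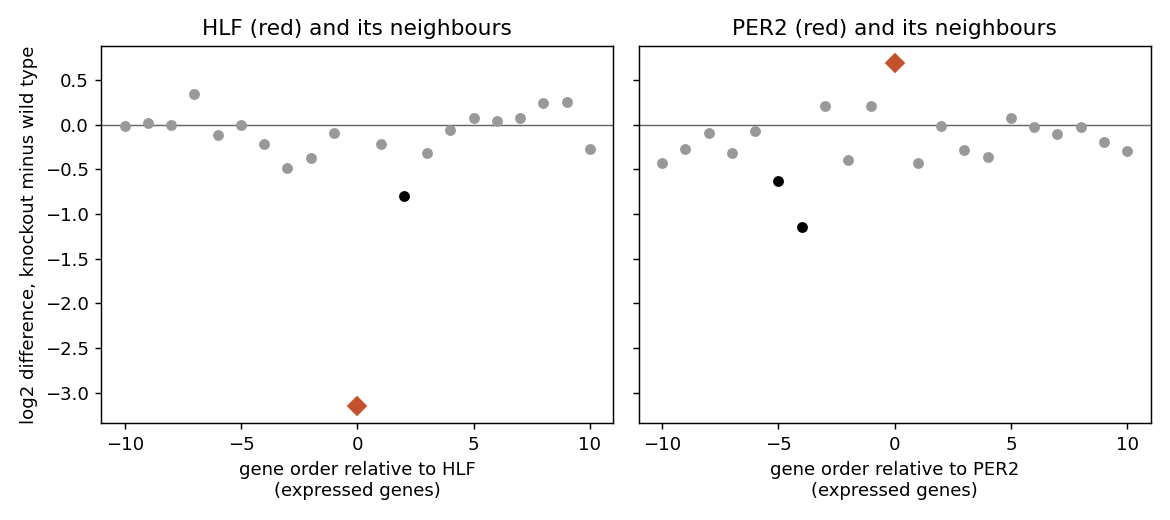
Log2 difference, knockout minus wild type (vertical axis), of HLF and PER2 (red diamonds) and of the 10 genes of at least median brightness on each side, in chromosomal order (horizontal axis); black points were called. HLF at -3.15 lies below all its neighbours (-0.80 to 0.34), and PER2 at 0.69 above all of its own (-1.15 to 0.21).

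The other genes of the clock were followed as a list of 20, of which 17 had a probe set with 1 symbol. By limma 0 rose, 0 fell and 17 did not pass, where 3.14% of all genes were called up and 3.94% down. At an unadjusted p under 0.05, 4 were lower (BMAL1, NPAS2, CSNK1D and TIMELESS) and 0 higher, where 20.0% of all genes reached that level in either direction. The list's median log2 difference was -0.05, against 0.01 over all genes, and its values ran from -0.56 to 0.40. BMAL1, the activator that pairs with CLOCK, read 6.83 and 7.12 in wild type against 6.51 and 6.51 in knockout, a log2 difference of -0.46 (SE 0.15, adjusted p = 0.147 by limma). NPAS2, which can replace CLOCK, read 7.70 and 7.72 against 7.37 and 7.34, a log2 difference of -0.35 (SE 0.10, adjusted p = 0.123 by limma), and its other probe sets gave -0.85, -0.59, -0.57 and -0.09. CLOCK itself differed by -0.10. CSNK1D, a kinase that marks PER proteins for turnover, differed by -0.56 (SE 0.14, limma adjusted p = 0.0801), although its other probe sets gave -0.22 and 0.15. CRY2 differed by 0.30 and CIART, an inhibitor of CLOCK and BMAL1, by 0.40, and neither passed.

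Genes known as targets of the PAR-bZIP proteins or of the clock had a median log2 difference of 0.09, against 0.01 over all genes. Among the 17 measured, 1 rose, 0 fell and 16 missed the threshold, where 3.14% of all genes were called up and 3.94% down. ABCB1, the drug exporter MDR1, rose 1.80-fold, from 7.13 ± 0.01 to 7.98 ± 0.02 (SD, n = 2 each), with the knockout arrays 0.86 and 0.84 above the wild-type mean. This log2 difference of 0.85 (SE 0.10) passed limma's test (adjusted p = 0.0124), and its other probe set gave 0.55. The call ended with any 1 array left out, as most calls over all genes did. KLF10, a clock-controlled zinc finger gene, read 9.31 and 8.63 against 9.65 and 10.28, a log2 difference of 1.00 whose replicates were far apart (SE 0.29, limma adjusted p = 0.119). The liver targets ALB (0.09), CYP2A6 (0.06) and CYP3A4 (0.11) differed little, and CYP7A1 and F9 lay below the 25th percentile on all 4 arrays. POR, the electron donor of the cytochromes P450, differed by -0.45 (SE 0.12, limma adjusted p = 0.102) and ALAS1, the first enzyme of heme synthesis, by 0.27.

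C/EBP and related bZIP genes, whose proteins bind sites akin to the D-box, had a median log2 difference of -0.17 against 0.01 over all genes. By limma 2 of 10 fell, 0 rose and 8 did not pass, where 3.94% of all genes were called down and 3.14% up. CEBPB, a factor of the acute phase response, read 11.69 and 11.66 in wild type against 11.03 and 11.14 in knockout (log2 difference -0.59, SE 0.08, limma adjusted p = 0.0183). DDIT3, the stress factor CHOP, fell by 0.72 on the log2 scale (SE 0.10, limma adjusted p = 0.0162). CEBPA, the main C/EBP of hepatocytes, differed by -0.14 and CEBPD by 0.09. The calls of CEBPB and DDIT3 ended with any 1 array left out, as most calls over all genes did.

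Immediate early and glucocorticoid-induced genes follow the serum, stress and hormone state of a culture, which also acts on PER1 and NFIL3. Among 16 of them, 4 fell, 1 rose and 11 missed the threshold, where 3.94% of all genes were called down and 3.14% up. The list's median was -0.26 against 0.01 over all genes. EGR1, an immediate early zinc finger gene, read 9.54 and 9.58 in wild type against 8.62 and 8.64 in knockout (log2 difference -0.92, SE 0.09, limma adjusted p = 0.00668), and its other probe sets gave -0.84 and -0.86. MYC fell by 1.00 (SE 0.10, limma adjusted p = 0.00722). The liver enzyme gene TAT fell by 1.05 and TSC22D3 (GILZ) by 0.80, and the phosphatase gene DUSP1 rose by 0.67. For these last 3 the other probe sets lay between -0.07 and 0.18. FKBP5 and SGK1, induced by glucocorticoids too, differed by 0.25 and 0.17 without passing. All 5 calls came from probe sets whose suffix marks possible cross-hybridisation. None of them held with any 1 array left out, and 0 of 11 testable genes were called without probe sets that may cross-hybridise. EGR1, MYC and DUSP1 have no probe set of another type and were not among those 11, so that setting says nothing about them. TAT and TSC22D3 were read there by another probe set (-0.01 and 0.01). The part of the serum, stress and hormone state in the values of PER2 and NFIL3 was not tested.

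**Figure D4:**
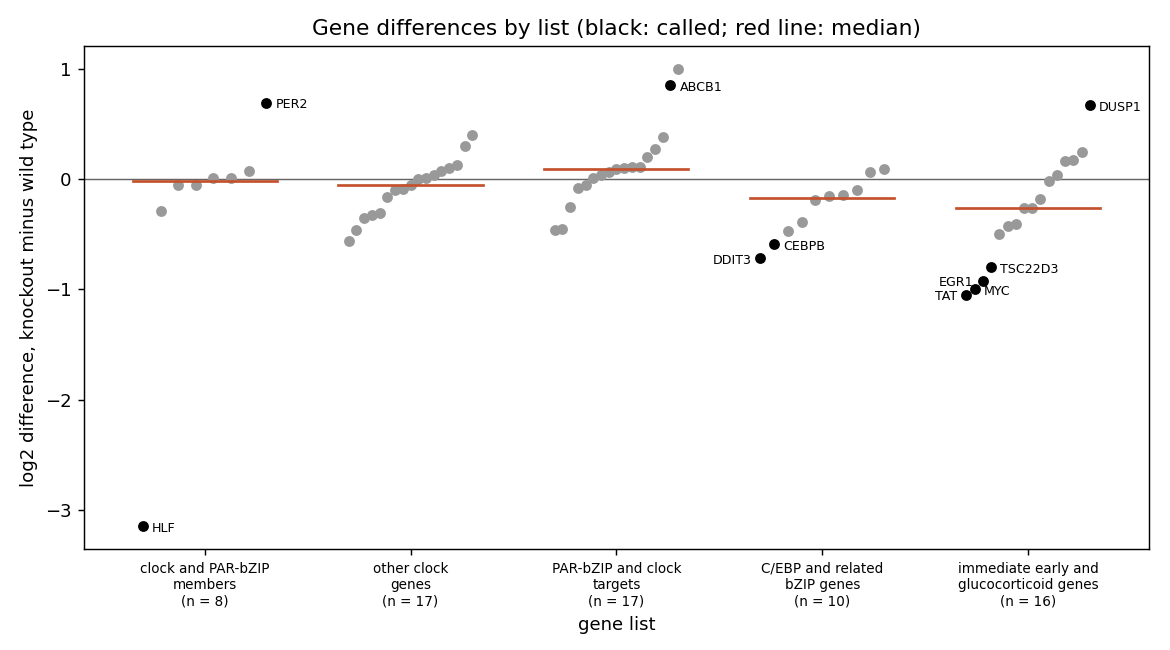
Log2 difference, knockout minus wild type (vertical axis), of each gene of 5 lists (horizontal axis, 1 point per gene in order of its value); black points were called and named, and red lines are medians. HLF at -3.15 is the lowest point of all, the 17 other clock genes include 0 called, and the list medians run from -0.26 to 0.09.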

How the data were processed

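RNA of 4 HuH7 samples was hybridised to Affymetrix U133 Plus 2.0 arrays after 3′ labelling. Per the submitters' processing notes, the deposited log2 values were made with RMA and affy, with versions not given in the sources used here. The method forces alike distributions on arrays, so a shift shared by most genes would be removed. No detection calls were used.

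Of 54613 probe sets, 41091 had 1 symbol, 1801 several and 11721 none, and 41037 matched RefSeq (GRCh38.p14) by Entrez identifier. Each of 19775 genes was read by its brightest probe set. Knockout and wild type were compared with limma 3.58.1 in R 4.3.3 (lmFit, eBayes with trend, two-sided, Benjamini-Hochberg), over genes and again over all probe sets, with group as the only term. An exact permutation test of 2 against 2 cannot go below 0.333. In 20 simulated sets of 19775 genes, of which 200 were changed, the gene fit recovered 34.4% of 2-fold and 90.8% of 4-fold changes. In the data 7.07% of genes were called, a larger share than was changed there. The adjusted p depends on that share, so these figures are not the recovery in the data. Figures were drawn with matplotlib 3.10.9.

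The members and lists were chosen with earlier results of these data known. Named were all members, KDM6B, up to 3 called genes of each list in each direction, the 5 genes nearest to HLF and direct neighbours on chromosome 17; others (among them those at an unadjusted p under 0.05, PCTP and TSC22D3) were chosen after their values were seen. Alternatives were the trend, the probe set rule, cross-hybridising probe sets, scaling, a brightness filter, the threshold, blocks and left-out arrays. The setting without cross-hybridising probe sets dropped suffix a as well as s and x, and with it the brightest PER3 probe set.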

Additional observations from a re-analysis of the deposited data

How the results depend on the processing

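HLF was chosen for its fall, so its stability is no support. In the gene fit it differed by -1.94 once probe sets of the cross-hybridising types were dropped and by -3.18 to -2.71 otherwise with all 4 arrays; its mean lay below the brightness filter. Called members numbered 1 of 8 (HLF) without the intensity trend, with the mean of all probe sets, with arrays centred on their median and with any array left out (1 each time), and 1 of 6 (PER2) with the brightness filter. Called member probe sets were 0 to 2 over the left-out arrays (0 without either knockout array) and 1 of 10 without those that may cross-hybridise.

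The 1399 calls over all genes became 2236 at an adjusted p under 0.10, 783 when the trend was dropped, 826 when cross-hybridising types of probe set were left out and 37 to 192 with 1 array left out, where the lone array of a group is assumed to vary like the other group. Without the trend 1 C/EBP gene and 3 immediate early and glucocorticoid genes were called. With the mean of probe sets these last were 3 (JUN, EGR1 and MYC), and other clock genes 1 (NPAS2). The C/EBP list had 3 calls (ATF5 added) and the immediate early list 7 (JUN and ATF3 added) in 2 settings, an adjusted p under 0.10 and the brightness filter. At an adjusted p under 0.10 the other clock genes had 1 call (CSNK1D), and repeated quantile normalization gave 2 target genes (ABCB1 and KLF10). Immediate early and glucocorticoid genes had 0 of 11 without probe sets that may cross-hybridise, where EGR1, MYC and DUSP1 could not be tested. With 1 array left out the target, C/EBP and immediate early lists had 0 calls each time. Beyond the smaller number of arrays or genes, the cause of these changes was not tested.

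Arrays of the same title number did not deviate together (correlation of replicate differences across genes -0.55). The labels do not say that such a number marks a shared culture or day, so the numbers were not taken as pairing. As a replicate block they left 175 calls over all genes, 1 among members (HLF) and 0 in the target, C/EBP and immediate early lists. The crossed pairing, chosen after seeing the data, gave 3662 calls over all genes, 3 among members (HLF, PER2 and NFIL3), 5 among member probe sets, 4 among other clock genes, 5 among targets, 5 in the C/EBP list and 9 in the immediate early list.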
